A study of Mus musculus with 5 samples.

Results

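The 53 genes described here act in DNA replication and repair. They were listed by name, from origin licensing through DNA synthesis and the checkpoint to the repair of broken DNA, and all 53 were found by symbol among 21887 protein-coding genes of a RefSeq table on GRCm38.p6, the assembly behind mm10. The readout was chromatin immunoprecipitation and sequencing of H3K36me3, the trimethyl mark on lysine 36 of histone H3, in mTEClo. These medullary thymic epithelial cells were sorted by FACS from wild-type B6 mice as EpCAM+, UEA-1+, Ly51lo and CD80lo. There are 2 ChIP libraries, named series 1 and series 2, and 3 inputs without antibody, of which 2 belong to series 1 and 1 to series 2. All are wild type, no treatment is named, and the animals' age is not given in the labels. Mice were sorted one by one, yet the labels do not say which mouse gave which library. Spread between the series may therefore be technical, and with 1 ChIP library in each no difference between them can be tested.

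Replication begins with licensing. The origin recognition complex (ORC) marks origins and, with Cdc6 and Cdt1, loads the Mcm2 to Mcm7 helicase in G1. Cdc45 and the GINS complex then switch the helicase on, and polymerases, the sliding clamp PCNA, its loader RFC and the single-strand binding complex RPA copy the DNA. Atr and Atm are the kinases that answer stalled forks and broken ends. Many licensing and synthesis genes are switched on by E2F factors as cells enter S phase, and the mTEClo compartment is known to include cycling precursors of mature mTEC. H3K36me3 is placed along gene bodies by Setd2 travelling with elongating RNA polymerase II, and is known as a mark of transcribed genes.

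No peak of either series lay on the promoter window of any of the 45 genes that have one in RefSeq (250 bases before a transcript start to 50 after it), and of the 17492 coding genes with such a window 0.0572% had a peak on it in series 1 and 0.0743% in series 2. The windows follow annotated transcript starts, which need not be the 5′ end of the span. In Orc1 a series 2 peak crosses the 5′ end of the span, 11 bp into it, outside the window. The promoters share letters that the list did not use. The E2F motif was searched on both strands as TTTCCCGC, TTTCGCGC, TTTGCCGC or TTTGGCGC. It stood in a promoter window of 17 of the 45 genes (37.8%), against 3.29% of all 17492. A gene counts if the window of any of its annotated starts holds the letters, so genes with more starts have more chances. The CCAAT box, CCAAT on either strand, stood in 30 of 45 (66.7%), against 42.3% of all. The cell cycle homology element, TTTGAA or TTCGAA on either strand, stood in 5 of 45 (11.1%), against 20.2% of all. The E2F letters were found in 8 of the 23 genes with a peak in either series and in 9 of the 22 with none. In the 250 bases before the start alone they were found in 8 of the 23 and in 4 of the 22. A match is a match of letters and does not show a bound factor.

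The 250 bases before the start are printed for 4 licensing genes (RefSeq, GRCm38.p6, all on the minus strand), with the searched motifs in capitals. Mcm6 and Orc3 were picked after their values were seen, to show the E2F letters in genes with peaks further inside. Orc5 and Orc2 are the 2 genes best covered among those with a peak in both series.
Mcm6, chr1:128359706-128359955: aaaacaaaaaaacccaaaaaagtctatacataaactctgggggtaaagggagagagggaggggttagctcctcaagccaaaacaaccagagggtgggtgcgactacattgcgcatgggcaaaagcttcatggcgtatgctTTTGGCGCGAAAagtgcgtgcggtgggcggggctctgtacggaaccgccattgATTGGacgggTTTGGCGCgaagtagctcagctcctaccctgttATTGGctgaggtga
Orc3, chr4:34614943-34615192: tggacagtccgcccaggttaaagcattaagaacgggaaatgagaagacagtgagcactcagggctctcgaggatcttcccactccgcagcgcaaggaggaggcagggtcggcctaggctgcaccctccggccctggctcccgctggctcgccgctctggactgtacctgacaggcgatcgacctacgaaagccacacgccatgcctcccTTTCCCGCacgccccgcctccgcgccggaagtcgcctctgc
Orc5, chr5:22550339-22550588: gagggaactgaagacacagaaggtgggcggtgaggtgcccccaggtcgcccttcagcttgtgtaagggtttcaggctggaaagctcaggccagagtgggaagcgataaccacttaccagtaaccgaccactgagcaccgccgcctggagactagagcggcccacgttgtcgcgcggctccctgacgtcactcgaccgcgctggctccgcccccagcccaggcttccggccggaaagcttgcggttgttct
Orc2, chr1:58505110-58505359: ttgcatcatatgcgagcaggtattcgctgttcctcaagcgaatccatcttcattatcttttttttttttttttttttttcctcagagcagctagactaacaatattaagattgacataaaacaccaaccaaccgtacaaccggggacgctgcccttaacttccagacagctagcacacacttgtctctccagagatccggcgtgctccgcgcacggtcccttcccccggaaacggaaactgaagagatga
In Mcm6 the E2F letters begin 110, 106 and 47 bases before the start, the first pair overlapping on opposite strands, and CCAAT boxes begin 57 and 14 bases before it. In Orc3 they begin 41 bases before the start. The printed stretches of Orc5 and Orc2 hold none of the searched letters. Orc2 still counts above among the genes with a CCAAT box. That count also takes in the bases after a start and the other annotated start of Orc2, which are not printed.

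Peaks lay in 25 of the 53 genes. In series 1, 15 genes (28.3%, exact binomial 95% interval 16.8 to 42.4%) held at least 1 bp of a peak, against 16.3% of all coding genes. In series 2 there were 17 (32.1%, 19.9 to 46.3%), against 19.5%, and 7 genes (13.2%, 5.48 to 25.3%) were hit in both, against 8.42%. In either series the 25 make 47.2% (33.3 to 61.4%), against 27.4%. The intervals cover counting error only and are no test, as the genes were not drawn at random. The remaining 28 genes had no peak in these lists, which hold no read counts. A gene without a peak was below the authors' threshold at an unknown depth and is not shown to lack the mark.

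The genes are longer than most, and length goes with the chance of holding a peak. Their median span was 28.1 kb, against 17.2 kb for all coding genes. If each were hit at the share of coding genes of its own length class (10 classes of equal number), 10.5 would be hit in series 1, 12.3 in series 2, 5.00 in both and 17.8 in either, where 15, 17, 7 and 25 were. As percentages the class shares come to 19.9%, 23.2%, 9.44% and 33.6%. Each lies below the share seen and inside the wide interval given above, which is no test and settles nothing. All 7 genes hit in both series span over 35.8 kb. Of the 22 genes above that length, series 1 hit 10 (45.5%), series 2 hit 12 (54.5%) and both hit 7 (31.8%). Among coding genes as long, the shares were 35.9%, 44.0% and 21.9%. Of the 31 shorter ones, 5 (16.1%) were hit in each series and none in both (0 of 31), against 7.92%, 8.98% and 2.62%. Among the 16 of at most 17.2 kb, 4 (25.0%) were hit in series 1, which were Mcm4, Rfc3, Rfc5 and Rpa2, against 3.74% of all coding genes up to that length. Only Mcm2 was hit there in series 2 (6.25%), against 4.79%. Most of the 16 lie in the longer part of that range, so these shares are low references for them. For the 7 of 7.39 to 11.7 kb, the shares of their length class were 5.94% in series 1 and 6.63% in series 2. For the 6 of 11.7 to 17.2 kb they were 9.41% and 12.2%.

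**Figure D1:**
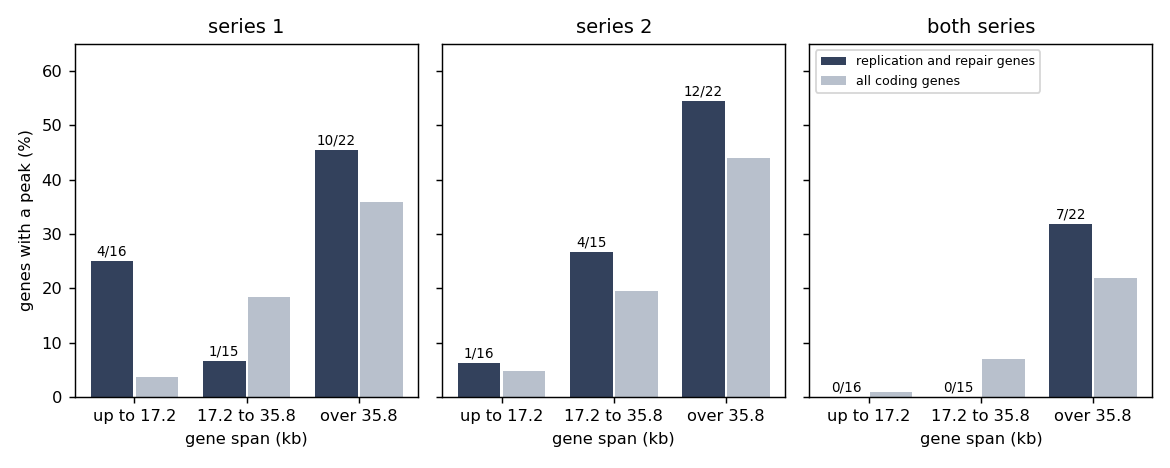
Percent of genes with a peak (vertical axis) by gene span in kb (horizontal axis), for the 53 replication and repair genes (dark bars, with counts above) and all coding genes (light bars), in series 1, series 2 and both. The 7 genes hit in both series all lie in the longest class, where 21.9% of coding genes were hit in both. The genes behind a pair of bars are not matched for span within the class.

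By bases rather than by genes, peaks covered 0.467% of the summed span of 2.22 Mb in series 1 and 0.352% in series 2, a mean of 0.410% ± 0.0814 (SD, n = 2). Over all coding genes the shares were 0.315% and 0.224%, a mean of 0.270% ± 0.0639 (SD, n = 2). Coverage of each gene was thin: the highest was 6.61% of Rpa2 in series 1 and 2.15% of Nbn in series 2. At least 1% of the span was covered in 9 genes (17.0%) in series 1, against 9.12% of all coding genes, and in 8 (15.1%) in series 2, against 7.10%. No gene reached 1% in both (0 of 53), against 2.28% of all coding genes.

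**Figure D2:**
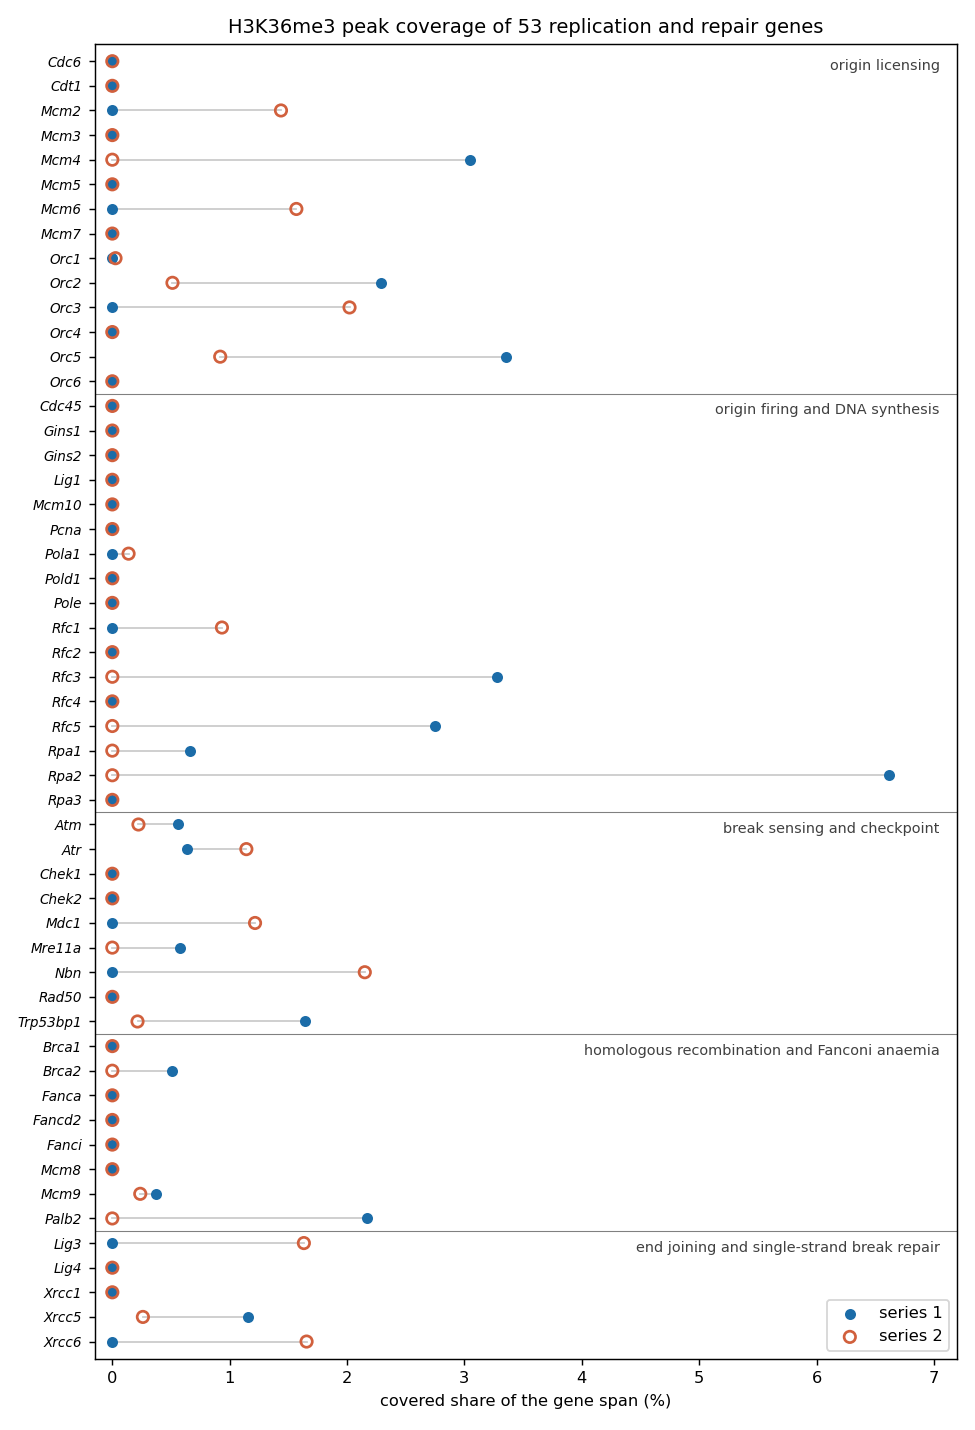
Percent of each gene's span under peaks (horizontal axis) for the 53 genes, grouped by role, with series 1 as filled and series 2 as open circles and a line joining the series. Most genes sit at 0 in at least 1 series, and the highest point is Rpa2 at 6.61% in series 1.

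Of 14 origin licensing genes, 3 were hit in series 1, 6 in series 2, 2 in both and 7 in neither. At the shares of their length classes 2.31, 2.69 and 0.973 would be hit in series 1, series 2 and both. Among the 6 ORC subunits, whose median span is 45.3 kb, Orc2 and Orc5 were hit in both series and Orc1 and Orc3 in series 2, while Orc4 and Orc6 had no peak. Orc5, a subunit on chromosome 5 from 22486480 to 22550338, held 3 peaks in series 1 with scores of 23, 23 and 17 and 1 peak in series 2 with a score of 18. They covered 3.36% and 0.919% of it, 2.14% ± 1.72 (SD, n = 2), the highest mean of the 7 genes. Orc2, on chromosome 1 from 58462771 to 58505113, held 1 peak of 970 bp with a score of 21 in series 1 and 1 of 217 bp with a score of 30 in series 2, over 2.29% and 0.512%, 1.40% ± 1.26 (SD, n = 2). The score is the authors', a whole number from their peak caller, and is read here only within a list.

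Orc3 had 2 peaks in series 2, over 2.02% of its span. One of them lies 0.989 kb inside the 5′ end, with a score of 30. The other is wider, at 751 bp, with a score of 12, near the lowest of the list, which is 10. The peak counted for Orc1, the largest ORC subunit, reaches only 11 bp into its span, and 4.87% of that peak lies in the gene, and it also touches the neighbouring gene Prpf38a. Both proteins that bring the helicase to ORC, Cdc6 and Cdt1, had no peak, and their genes are short, at 16.2 and 5.12 kb.

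The helicase genes Mcm2 to Mcm7 are also short, with a median span of 16.3 kb. Mcm4 held 1 series 1 peak over 3.05% of its span, with a score of 43, the highest of any series 1 peak in the 53 genes. Mcm2 held 1 peak in series 2 over 1.44%, with a score of 12, and Mcm6 held 2 over 1.57%, with scores of 23 and 12. Mcm3, Mcm5 and Mcm7 had none. No helicase subunit was hit in both series (0 of 6). In the length classes that hold them, only 1.19 to 8.96% of coding genes were hit in both. The peaks of Mcm2, Mcm4 and Mcm6 were each seen in 1 library.

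In origin firing and DNA synthesis, 4 of 17 genes were hit in series 1, 2 in series 2 and 0 in both. The shares of their length classes give 2.60, 3.05 and 1.19. The helicase activators Cdc45, Gins1, Gins2 and Mcm10 had no peak in either series, nor had Pcna. At the clamp loader, the small subunit genes Rfc3 and Rfc5 had a series 1 peak each, over 3.28% and 2.75% of their spans. Rfc1, the large subunit, had 1 in series 2 over 0.934%, with a score of 12, while Rfc2 and Rfc4 had none. Rpa2, the middle subunit of RPA, held a peak of 687 bp with a score of 31 in series 1, at 80.7% of the way from its 5′ to its 3′ end. Rpa1, the large subunit, held 1 over 0.660% of its span in series 1, and Rpa3, the small one, none. Among the catalytic subunits, Pola1 on the X chromosome, which spans 327.6 kb and is the longest of the 53 genes, held 2 peaks in series 2 over 0.139%, while Pold1 and Pole had none. Lig1, which joins Okazaki fragments, had none.

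Of the 9 genes of break sensing and the checkpoint, 4 were hit in series 1, 5 in series 2 and 3 in both. The shares of their length classes give 2.33, 2.71 and 1.18. The 3 are Atm, Atr and Trp53bp1, each over 95 kb long. Atr, on chromosome 9 from 95857597 to 95953217, held 1 peak in series 1, of 611 bp with a score of 20, and 4 in series 2, with scores of 12, 12, 26 and 14, over 0.639% and 1.14%, 0.890% ± 0.356 (SD, n = 2). It was the gene with the most peaks in a single series. Atm, on chromosome 9 from 53437122 to 53536828, held 2 peaks in series 1 and 1 in series 2, over 0.564% and 0.223%, 0.393% ± 0.241 (SD, n = 2). Trp53bp1, the chromatin reader 53BP1 that favours end joining, on chromosome 2 from 121194835 to 121296354, held 3 and 1, over 1.64% and 0.215%, 0.928% ± 1.01 (SD, n = 2).

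The effector kinases downstream of them, Chek1 and Chek2, had no peak. In the Mre11, Rad50 and Nbn complex, which senses broken ends, Mre11a had 1 peak in series 1 over 0.579% and Nbn had 1 in series 2 over 2.15%, while Rad50 had none. The Nbn peak is wide, at 753 bp, but its score of 12 is near the lowest of the list, which is 10. Mdc1, an adaptor at marked breaks, held the highest-scoring series 2 peak of the 53 genes, at 45, in a peak of 221 bp.

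Homologous recombination and Fanconi anaemia genes are long, with a median span of 55.2 kb, and 5 of 8 had no peak. These are Brca1, Mcm8 and the 3 Fanconi genes Fanca, Fancd2 and Fanci, which span 52.4 to 65.4 kb. At the shares of their length classes the 8 genes would give 3.74 hits in either series, where 3 were seen. Mcm9, partner of Mcm8 in recombination, on chromosome 10 from 53536315 to 53630006, had 1 peak in each series over 0.369% and 0.238%, 0.304% ± 0.0928 (SD, n = 2). Palb2, which links Brca1 to Brca2, had 1 in series 1 over 2.17%, and Brca2 had 1 over 0.506% with a score of 16, the lowest among the series 1 peaks of the 53 genes.

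Of 5 genes of end joining and single-strand break repair, 1 was hit in series 1, 3 in series 2 and 1 in both. The shares of their length classes give 1.02, 1.16 and 0.466. Peaks lay in Xrcc5 and Xrcc6, which encode the Ku80 and Ku70 subunits that hold broken ends. Xrcc5, on chromosome 1 from 72307417 to 72394953, held in series 1 a peak of 1011 bp with a score of 17, the widest in the 53 genes, and in series 2 one of 228 bp with a score of 21, over 1.15% and 0.260%, 0.708% ± 0.632 (SD, n = 2). Xrcc6 held 1 series 2 peak over 1.66%, which also touches Desi1. Lig3, a ligase of single-strand break repair, had 1 in series 2 over 1.63%. Lig4, which seals the ends that Ku holds, and Xrcc1, the scaffold that works with Lig3, had none.

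No place in these genes had a peak in both libraries. In the 7 genes with a peak in each series, the nearest peaks of the series lay 2.12 kb apart in Xrcc5, 5.49 kb in Atr, 6.71 kb in Orc5, 7.91 kb in Trp53bp1, 13.3 kb in Atm, 13.7 kb in Orc2 and 23.9 kb in Mcm9. Touching peaks were found in 0 of the 7, against 324 of the 1843 coding genes hit in both series (17.6%), and against 117 of the 691 such genes in the length classes that hold the 7 (16.9%). The count of 7 genes hit in both series thus rests on peaks at different places, as it does for most coding genes hit in both. The difference between 0 of 7 and these shares was not tested. The median gap was 7.91 kb in the 7 genes, 7.36 kb in the 1843 and 5.84 kb in the 691.

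**Figure D3:**
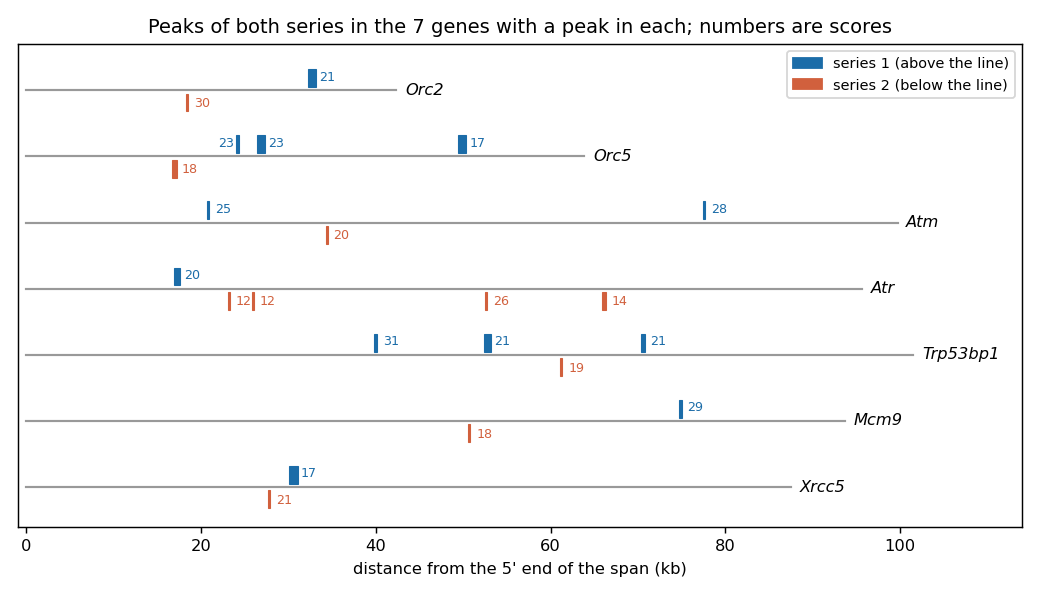
Positions of peaks in the 7 genes with a peak in each series, as distance in kb from the 5′ end of the span (horizontal axis), with series 1 above and series 2 below each gene line and the authors' score beside each peak. No peaks of the 2 series lie over each other, and the closest are 2.12 kb apart, in Xrcc5.

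Along the genes, the median peak centre lay nearer the 5′ end than that of peaks in all coding genes, which were not matched for span. Strand is known for 45 of the 53 genes. In series 1 the median peak centre lay 42.1% of the way from the 5′ to the 3′ end (19 peaks in 14 genes), against 61.0% for peaks of all coding genes with a strand. In series 2 it lay at 44.1% (22 peaks in 16 genes), against 58.9%. The stretch beyond 66.7% of the span held 7 of 19 peaks in series 1 (36.8%, exact 95% interval 16.3 to 61.6%), against 43.1%, and 4 of 22 in series 2 (18.2%, 5.19 to 40.3%), against 40.9%. The 22 include the Orc1 peak, whose centre lies just outside the 5′ end of its span. Peaks of 1 gene are not independent, and these values are given with no test. H3K36me3 is known to rise towards the 3′ end of genes.

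Scores of the peaks in these genes stayed below 50. The 20 series 1 peaks in these genes had a median score of 25.5 (range 16 to 43), against 21 for the 5151 peaks in coding genes. The 23 series 2 peaks had a median of 18 (range 12 to 45), against 16 for 6397. Of the peaks in coding genes, 6.48% reached that score in series 1 and 2.63% in series 2. When the score had to be 20 or more, series 1 hit 13 of the 53 genes, series 2 hit 10 and both hit 3, beside 10.9%, 9.01% and 3.30% of all coding genes. The 3 are Orc2, Atm and Atr. In series 2, 13 of the 23 peaks (56.5%) were within 9 bp of the narrowest width in the list, against 58.9% of its peaks in coding genes. No series 1 peak in these genes was that narrow for its list, against 3.40%.

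**Figure D4:**
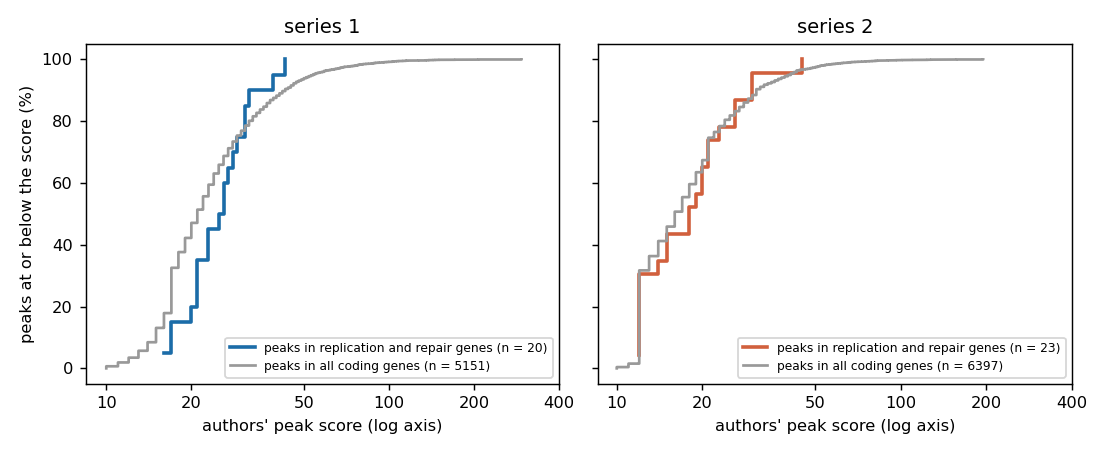
Cumulative percent of peaks (vertical axis) at or below the authors' peak score (horizontal log axis) for peaks in the replication and repair genes (coloured) and in all coding genes (grey), by series. Peaks in the replication and repair genes end at 43 in series 1 and 45 in series 2.

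The genes also share a crowded position. Another coding gene lies within 5 kb of 47 of the 53 (88.7%), against 49.1% of all coding genes, and the median distance to the nearest one was 0.115 kb, against 5.29 kb. The spans of 17 (32.1%) overlap another coding gene, against 17.5%. Of the 43 peaks, 2 touch another coding gene, those of Orc1 and Xrcc6. The share over all peaks in coding genes was not counted, so this count has no reference. Only 6 of the genes stand alone by 5 kb, of which 2 were hit in each series and 1, Orc5, in both, against 15.6%, 18.8% and 8.47% of the 11139 coding genes that stand as far apart.

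Further genes of the same pathways were counted in the same way. These lists were chosen with results of these libraries known. Of 42 other replication genes, 6 were hit in series 1, 13 in series 2 and 5 in both (33.3% in either series). The shares of their length classes give 6.82, 7.88 and 2.98, and 11.7 in either, where 14 were seen. The best covered in both were Donson, a replisome protein, covered over 11.4% in series 1 and 3.54% in series 2, Supt16, a subunit of the histone chaperone FACT, with 4.04% and 1.21%, Topbp1, the activator of Atr, with 2.06% and 1.76%, and Pold3, a polymerase delta subunit, with 1.84% and 0.556%. Of 72 other repair genes, 22 were hit in series 1, 25 in series 2 and 13 in both (47.2% in either). The shares of their length classes give 14.65, 17.2 and 7.43, and 24.45 in either, where 34 were seen. Rad17, which loads a checkpoint clamp, had the highest mean among those hit in both, with 2.72% and 3.12%, then Rad52 with 2.30% and 2.86%, Ercc3, a helicase of excision repair, with 2.54% and 1.92%, and Ercc5, a nuclease of the same pathway, with 3.51% and 0.638%. Supt16 had scores of 207 and 69, far above the highest score in the 53 genes.

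Genes of cycling cells, chosen in the same way, had a peak in either series at nearly the share of all coding genes. Their share was higher than that of all coding genes in series 1 and lower in series 2, a difference that was not tested. Of 47, among them cyclins and mitotic kinases, 10 were hit in series 1 (21.3%, against 16.3% of all coding genes), 6 in series 2 (12.8%, against 19.5%) and 3 in both (6.38%, against 8.42%). In either series the share was 27.7%, against 27.4%. The shares of their length classes give 7.22, 8.18 and 3.05, and 12.3 in either, where 13 were seen. Peaks covered 0.771% of their summed span in series 1, against 0.315% for all coding genes, and 0.131% in series 2, against 0.224%. The 3 are Smc2, a condensin subunit, with 4.53% and 0.452%, Rrm1, the large subunit of ribonucleotide reductase, with 3.30% and 1.56%, and Kif11, a spindle motor, with 2.72% and 0.477%. Mki67, the antigen Ki-67, had no peak, and Top2a had 1 in series 2. Of 9 genes that brake the cycle, 3 were hit in series 1 and 1 in series 2, with Rbl2, the pocket protein p130 of quiescent cells, in both over 2.86% and 1.24%. The shares of their length classes give 1.38 and 1.67. Each library averages over all cells of a sort, and the share of cycling cells was not tested.

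**Figure D5:**
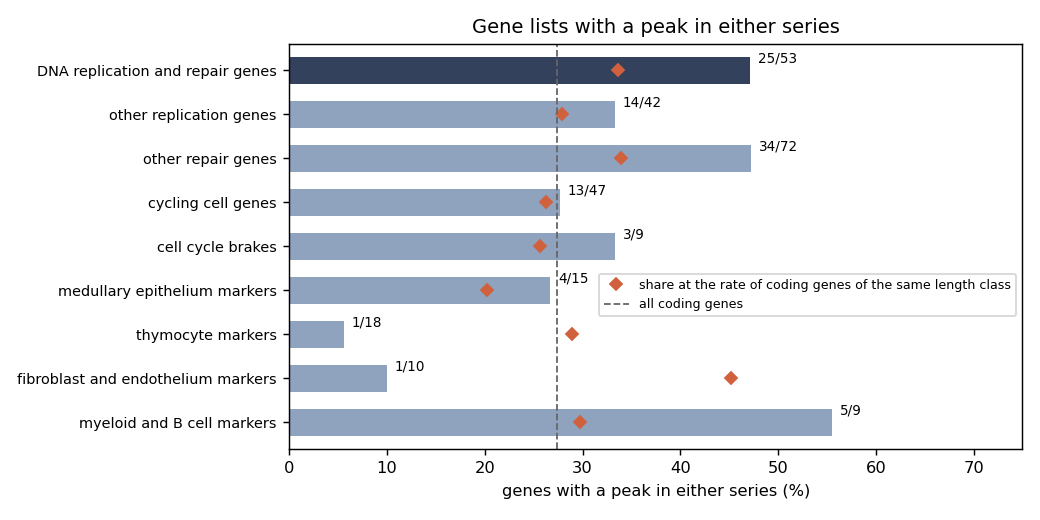
Percent of genes with a peak in either series (horizontal axis) for the 53 genes (dark bar) and 8 other lists, with counts beside the bars, the share of all coding genes as a dashed line and the share at the rate of the same length classes as diamonds. The 53 genes reach 47.2% and the genes of cycling cells 27.7%.

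Markers of medullary epithelium were partly seen. Of 15 medullary epithelial genes, 3 were hit in each series and 2, Krt5 and Itga6, in both, while Epcam, Krt14, Krt8, Foxn1 and Aire had none. The shares of their length classes give 1.76, 2.14 and 0.866. The third gene was Trp63 in series 1 and Cd80 in series 2, the latter with a score of 12. The list covers medullary epithelium at large and was not limited to genes of the CD80lo cells that were sorted. Thymocytes also replicate. Of 18 thymocyte markers, 0 were hit in series 1 and 1, Satb1, in series 2, and Ptprc, Cd3e, Cd4, Cd8a and Rag1 had none. At the shares of their length classes, 3.11 and 3.68 thymocyte markers would be hit in series 1 and 2. Of 10 fibroblast and endothelial markers, 1 was hit in series 1 and 0 in series 2, where the class shares give 2.71 and 3.22. Of 9 myeloid and B cell markers, 1 was hit in series 1, 4 in series 2 and 0 in both. The class shares give 1.60, 1.91 and 0.836. The 5 hit in either series are 55.6% of that list, a larger share than the 47.2% of the replication and repair genes, and the class shares give 2.68. Each of the 5 held 1 peak. The score was 26 for Itgam in series 1. In series 2 it was 12 for Csf1r and Pax5, 18 for Cd68 and 23 for Flt3. The part of such cells in the peaks of replication and repair genes was not tested.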

How the data were processed

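H3K36me3 ChIP of 2 libraries is analysed here through 1 list of broad peaks each, and the 3 input libraries only through the authors' calls. The submitters' processing notes name Bowtie2, SAMtools, MACS2 and build mm10, with versions and settings not given in the sources used here. The peak names show that series 1 was called against 2 inputs together and series 2 against 1, on filtered and sorted alignments, without pooling the ChIP libraries. The authors deposited a whole-number score per peak, whose meaning is not stated. There are no read counts, so depth is unknown.

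Peaks were placed on RefSeq spans of coding genes (chromosomes 1 to 19, X and Y) in Python (3.11.15) using pandas (2.3.3), numpy (2.4.6) and, for intervals, scipy (1.17.1). A gene counts as hit from 1 bp of overlap, on either strand. A peak in overlapping genes was given to all of them. Strand comes from the RefSeq promoter table. The position of a peak was measured from the outer ends of the span. The overlap code was checked on 200 placed peaks and found 100% of the gene and peak pairs of an exhaustive search.

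The genes and lists were chosen with earlier results of these data known, so no test over them is given and counts stand beside those of all coding genes. All genes hit in both series were to be named, with the 10 best covered of those hit in 1. The others were also named. In each further list up to 4 genes hit in both were named, and markers named as lacking a peak were picked after their values were seen. Promoters of up to 3 of the best covered genes were to be printed. Trp53bp1, the third, is left out because its annotated window lies inside the gene span.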

Additional observations from a re-analysis of the deposited data

How the results depend on the processing

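No paired analysis was possible because no result comes from a test and each series has 1 ChIP library. Counts of hit genes (15 in series 1, 17 in series 2, 7 in both, 25 in either) stayed within 1.5 times when 50% of the peak had to lie in the span (15, 16, 7 and 24) or spans were widened by 1 kb (15, 18, 7 and 26), and covered shares moved little with wider spans. With scores of at least 20, series 2 had 10 hits and both series 3, and covered shares were 0.370% in series 1, 0.0976% in series 2 and 0.234% on average. With scores of at least 50, counts and shares were 0. Without peaks near the narrowest width, series 2 had 10 hits and a share of 0.223%, and both series had 3 hits, Orc5, Atr and Xrcc5, different from the 3 at a score of 20 except for Atr. Requiring 1% of the span gave 9, 8 and 0. For the 6 genes standing 5 kb clear of other coding genes the counts were 2, 2, 1 and 3, since few genes enter. With 1 series left out, hits in either were 15 to 17 and the mean share 0.352 to 0.467%. Median scores did not move when peaks touching another coding gene were dropped, and no gene had peaks of both series within 1 kb. Unknown depth and 2 libraries limit every value.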
